A study of Homo sapiens with 12 samples.

Results

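The genes described here encode the subunits of the 5 oxidative phosphorylation complexes. They were found by name in the deposited tables: 102 of 29972 gene rows start with a subunit prefix (NDUFA, NDUFB, NDUFC, NDUFS, NDUFV, UQCR, COX4 to COX8, ATP5) or are SDHA, SDHB, SDHC, SDHD or CYC1. Leaving out 8 NDUFAF assembly factors and the 2 pseudogenes ATP5EP2 and UQCRBP1 kept 92 rows. Of these, 86 are subunit genes: 37 of complex I, 4 of complex II, 10 of complex III, 19 of complex IV (NDUFA4 and NDUFA4L2 included) and 16 of complex V. The other 6 rows (ATP5S, ATP5SL, the read-through genes ATP5J2-PTCD1 and NDUFC2-KCTD14, and the antisense genes NDUFA6-AS1 and NDUFB2-AS1) are no subunit genes, and none of them was called in either cell line.

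The mRNA of 2 triple-negative breast cancer cell lines was sequenced, in 12 libraries. MDA-MB-436 is an established line, and BoM-1833 is a bone-tropic subline derived from MDA-MB-231. Each line had 3 libraries with a non-targeting control siRNA pool (siNT) and 3 with siRNA against PHF19 (siPHF19, for which the labels list a pair of siRNAs). PHF19 is a Polycomb-like subunit of the histone methyltransferase PRC2. Every library, the controls included, came from cells reverse transfected with 5 nM siRNA and taken at 72 h. The design asks which transcripts differ when PHF19 is depleted, here for the respiratory chain and ATP synthase.

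In MDA-MB-436 the libraries held 15186338 to 24010271 reads in genes, and in BoM-1833 13748100 to 21258567. PHF19 itself had 2942 to 3763 normalized counts in siNT and 314.7 to 340.1 in siPHF19 of MDA-MB-436, and 1669 to 1711 against 173 to 200.5 in BoM-1833. That leaves 9.75% of the siNT mean in the first line and 10.9% in the second, and its siPHF19 libraries lay below every siNT library in both lines. VIM, KRT8 and KRT18 were present in both lines, ESR1 and PGR reached at most 3.97 normalized counts, and ERBB2 lay between 932 and 1179. KRT19 and CDH1 were near 0 in MDA-MB-436 (at most 3.1), whereas KRT19 was at 5228 or more in BoM-1833. Of the markers of other cells, CD3E, CDH5, HBA1, HBB, ALB and ADIPOQ reached at most 2.11, PTPRC at most 21.2, PECAM1 at most 404.5 and CD68 3337. Nothing in the labels says that the replicates came from separate cultures, so p-values measure only the spread between these libraries, which may be technical.

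Complexes I to IV of the respiratory chain pass electrons from NADH and succinate to oxygen, and complexes I, III and IV pump protons across the inner mitochondrial membrane as they do so. Complex V, the ATP synthase, lets the protons flow back and makes ATP. Most subunits are encoded in the nucleus and imported, and a small set that includes the catalytic centres of complex IV is encoded in mitochondrial DNA. The 13 mitochondrially encoded subunit genes have no row in these tables and were not analysed here.

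Values below are normalized counts, that is, reads divided by the library's DESeq2 size factor. A gene was called when its Benjamini-Hochberg adjusted p from the DESeq2 Wald test was under 0.05 in the authors' deposited table, and tested when that table gives an adjusted p. In MDA-MB-436, 11 of 79 tested subunit genes were called, 3 higher (NDUFB4, COX8A and NDUFA4) and 8 lower (UQCRC2, NDUFA5, NDUFB10, SDHC, ATP5D, ATP5G1, ATP5O and ATP5I). Among all tested genes 22.1% were called (10.5% higher, 11.5% lower), and 28.2% among those with a mean of at least 300 normalized counts, beside 13.9% of the subunit genes. Without siNT 3 the order turned, with 39.2% of the subunit genes called and 26.9% of all tested genes. The median log2 fold change of the tested subunit genes was -0.07, against 0.00 for all genes tested. Of the subunit genes 22 of 79 (27.8%) lay above 0, where 49.6% of all tested genes did. The share was 35.3% for other genes with a transcript under 1000 bases (median -0.08). It was 29.3% for cytosolic (-0.08) and 15.8% for mitochondrial ribosomal protein genes (-0.15). In the lists of carriers, transcription factors and glycolysis genes given below it was 64.3%, 57.1% and 50%. In bulk RNA, fewer cells of a type and less RNA per cell cannot be told apart.

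In BoM-1833, 3 of 79 tested subunit genes were called, all of them higher: NDUFA7, COX8A and ATP5G2. The background there was 10.9% of all tested genes (5.21% higher, 5.72% lower), and 14.3% of those with a mean of at least 300, beside 3.8% of the subunit genes. Without siNT 1 this order turned too, with 34.6% of the subunit genes called and 17.0% of all tested genes. None was called lower by DESeq2, with 1 lower and 14 higher at an unadjusted p under 0.05. UQCRC2 was called lower in this line in 4 of 17 alternative fits, given with its values below. The median log2 fold change was 0.08, and 65 of 79 (82.3%) lay above 0, where 49.1% of all tested genes did. The share was 57.8% for other genes with a transcript under 1000 bases (median 0.03). It was 24.4% for cytosolic (-0.03) and 48.7% for mitochondrial ribosomal protein genes (0.00). COX8A was the only subunit gene called in both lines.

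Most of the changes were small. From the deposited log2 fold changes and standard errors, the 95% interval lay within 1.5-fold of no change in either direction for 74 of 79 subunit genes of MDA-MB-436, and in BoM-1833 for 77 of 79. The 3 siPHF19 libraries did not overlap the 3 siNT libraries in 13 of 79 subunit genes in MDA-MB-436 (5 higher, 8 lower), where 42.2% of all tested genes were separated in this way. In BoM-1833 this held for 12 of 79 (10 higher, 2 lower), against 31% of all tested genes. Both shares are below the background.

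**Figure D1:**
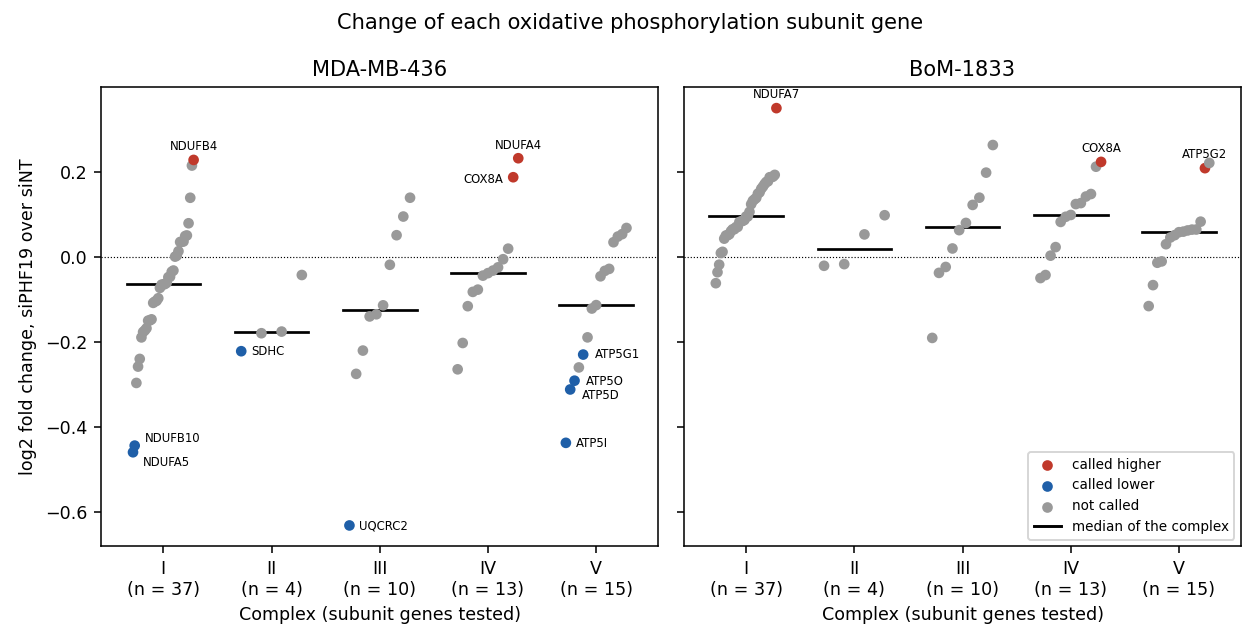
Log2 fold change (siPHF19 over siNT, from the deposited tables) of each tested subunit gene, by complex, in MDA-MB-436 (left) and BoM-1833 (right). Each point is a gene, coloured by its call; the black line is the median of the complex. UQCRC2 lies lowest in both panels, at -0.63 and -0.19, and the 3 genes called in BoM-1833 lie between 0.21 and 0.35.

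The counts of calls moved with the library left out. In fits of DESeq2 to the recovered reads without 1 library, the count in MDA-MB-436 was 10 without siNT 1, 4 without siNT 2, 31 without siNT 3, 3 without siPHF19 1, and 4 without siPHF19 2 or siPHF19 3. Without siNT 1 the median log2 fold change was 0.02 and 47 of 79 genes lay above 0, so the direction of the median in MDA-MB-436 depended on that library. In BoM-1833 the count was 27, all higher, without siNT 1, and 0 without any other library of the line. Of the 11 calls in MDA-MB-436, those of UQCRC2, NDUFA5 and NDUFB10 held in all 17 alternative fits, and no call in BoM-1833 did.

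The libraries of a group differed from each other over the subunit genes as a whole. For each library, the median deviation of the subunit genes from their own means over the 6 libraries of the line was taken on the log2 scale. In MDA-MB-436 it was 0.22, 0.04 and -0.14 in siNT 1, 2 and 3, and -0.10, -0.03 and 0.03 in siPHF19 1, 2 and 3. In BoM-1833 it was 0.09, -0.10 and -0.12 in the siNT libraries and 0.01, 0.07 and 0.07 in the siPHF19 libraries. Replicate 1 was thus the highest siNT library in both lines, and in MDA-MB-436 the siNT libraries spanned the whole range of the siPHF19 libraries.

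Other genes deviated in the same libraries. In MDA-MB-436 siNT 1, the median deviation was 0.23 for 82 cytosolic ribosomal protein genes, 0.24 for 76 mitochondrial ribosomal protein genes and 0.18 for 878 other genes with a transcript under 1000 bases. In BoM-1833 siNT 1 it was 0.17, 0.12 and 0.11 for the same kinds of gene (841 short genes). The subunit genes are themselves short, with a median transcript length of 751 bases against 2604 for the genes tested in MDA-MB-436. The part of transcript length or of RNA quality in these deviations was not tested.

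**Figure D2:**
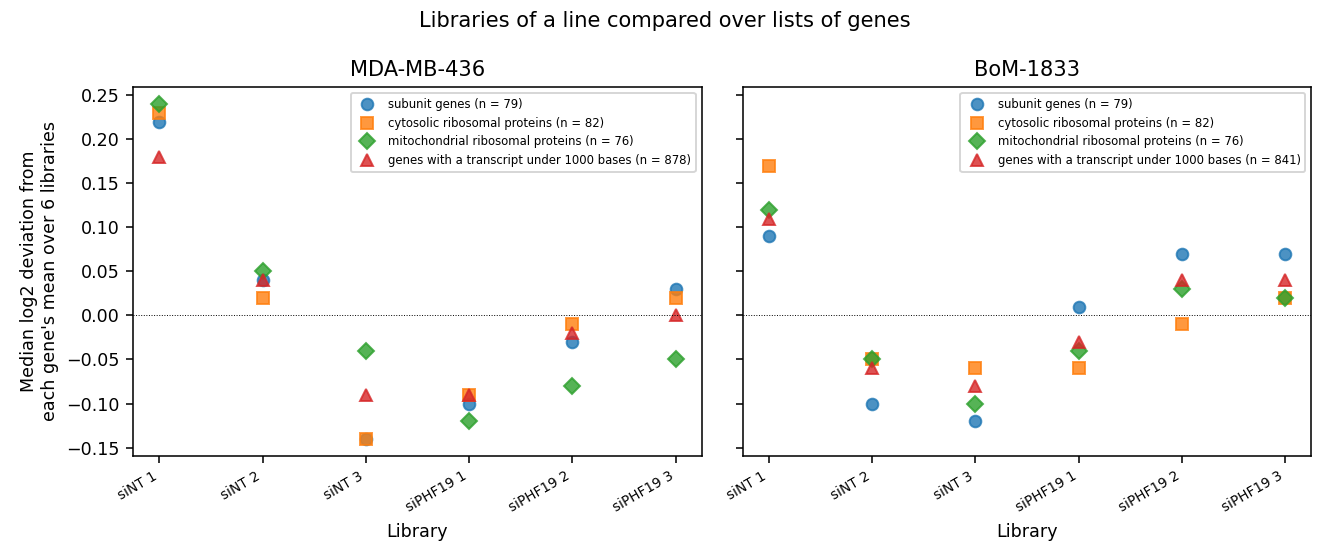
Median log2 deviation of each library from the gene means over the 6 libraries of its line, for 4 lists of genes. The siNT 1 library stands highest for every list in both lines (0.22 and 0.09 for the subunit genes), and siNT 3 is lowest for the subunit genes in both (-0.14 and -0.12).

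Features that the name rule did not use were read from the promoters. RefSeq (GRCh38.p14) gave 83 promoters for 69 of the 86 subunit genes, each from 250 bases before to 50 bases after an annotated start. They were searched on both strands for 4 motifs known from respiratory chain genes, in counts of promoters with at least 1 match. GCGCATGCG, a form of the NRF1 motif that nearly equals its own reverse complement, was in 13.3% of the subunit promoters and in 1.92% of all 35116. CCGGAAG, an ETS motif as bound by GABP, was in 25.3% against 10.3%, and AAGATGGCG, a YY1 motif, in 12% against 1.75%. TCAAGGTCA, a motif of the estrogen-related receptors, was in 1.2% against 0.353%. No match of a motif overlapped a match of another in these promoters. These shares describe the letters of the promoters and show no binding.

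Complex III passes electrons from ubiquinol to cytochrome c. UQCRC2, its core protein 2, is a matrix-facing structural subunit and had the largest change among all tested subunit genes in MDA-MB-436. The gene lies at chr16:21952660-21983660 on the plus strand (GRCh38, GENCODE v29). In MDA-MB-436 it had 4995, 5113 and 5144 normalized counts in the siNT libraries and 3375, 3318 and 3158 in the siPHF19 libraries. The siNT libraries lay close together and every siPHF19 library lay far below them. The mean fell from 5084 ± 78.7 to 3284 ± 113 (SD, n = 3 each), to 64.6% of the control. The authors' deposited table puts the log2 fold change at -0.63 (SE 0.06, DESeq2 adjusted p 5.1e-22). The call held in all 17 alternative fits, with log2 fold changes of -0.65 to -0.60.

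In BoM-1833, UQCRC2 stood at 1722, 1649 and 1709 in the siNT libraries and at 1497, 1451 and 1504 in the siPHF19 libraries. Here too the groups did not overlap, with a smaller distance between them. The authors' deposited table gives -0.19 (SE 0.07, DESeq2 adjusted p 0.0534), just outside the threshold. It was under the threshold in 4 of 17 alternative fits, with edgeR scaled by TMM or by size factors and with limma at either pseudocount (adjusted p 0.0417 to 0.372 over all 17).

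The promoter of UQCRC2 is shown because this gene carries the largest change. It lies on the plus strand at chr16:21953111-21953410 (RefSeq, GRCh38.p14), and none of the 4 motifs was found in it, so it holds no capitals:
UQCRC2: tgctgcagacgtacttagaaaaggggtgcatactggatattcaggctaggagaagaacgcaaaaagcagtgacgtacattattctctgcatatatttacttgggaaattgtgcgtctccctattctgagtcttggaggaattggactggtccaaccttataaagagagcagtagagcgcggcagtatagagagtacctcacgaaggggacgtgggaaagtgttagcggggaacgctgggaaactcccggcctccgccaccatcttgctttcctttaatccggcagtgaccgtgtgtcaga

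The other complex III genes moved less. UQCR11, a small membrane subunit, was at 1132, 963 and 840.2 in siNT and 749, 747 and 933 in siPHF19 of MDA-MB-436 and was not called (-0.27, DESeq2 adjusted p 0.113 in the authors' deposited table). Its groups overlapped, and it was called lower without siNT 3 (-0.37, adjusted p 0.00867) and without siPHF19 3 (-0.39, adjusted p 0.0385). UQCRFS1, the Rieske iron-sulfur protein, was at 2332, 2113 and 1965 in siNT and 2371, 2556 and 2430.2 in siPHF19 of BoM-1833. Its groups did not overlap, but the authors' deposited table gives an adjusted p of 0.0726 (DESeq2, log2 fold change 0.20). Without siNT 1 it was called higher there (0.27, adjusted p 0.000436). CYC1, the cytochrome c1 that carries the haem, was called in neither line, and the authors' deposited table gives 0.09 (MDA-MB-436) and 0.14 (BoM-1833). Without siNT 1 of BoM-1833 CYC1 was called higher there. In all, 1 of 10 complex III genes was called in MDA-MB-436, against 0 of 10 in BoM-1833, where 4 had an unadjusted p under 0.05. The background of all tested genes was 22.1% and 10.9% called.

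**Figure D3:**
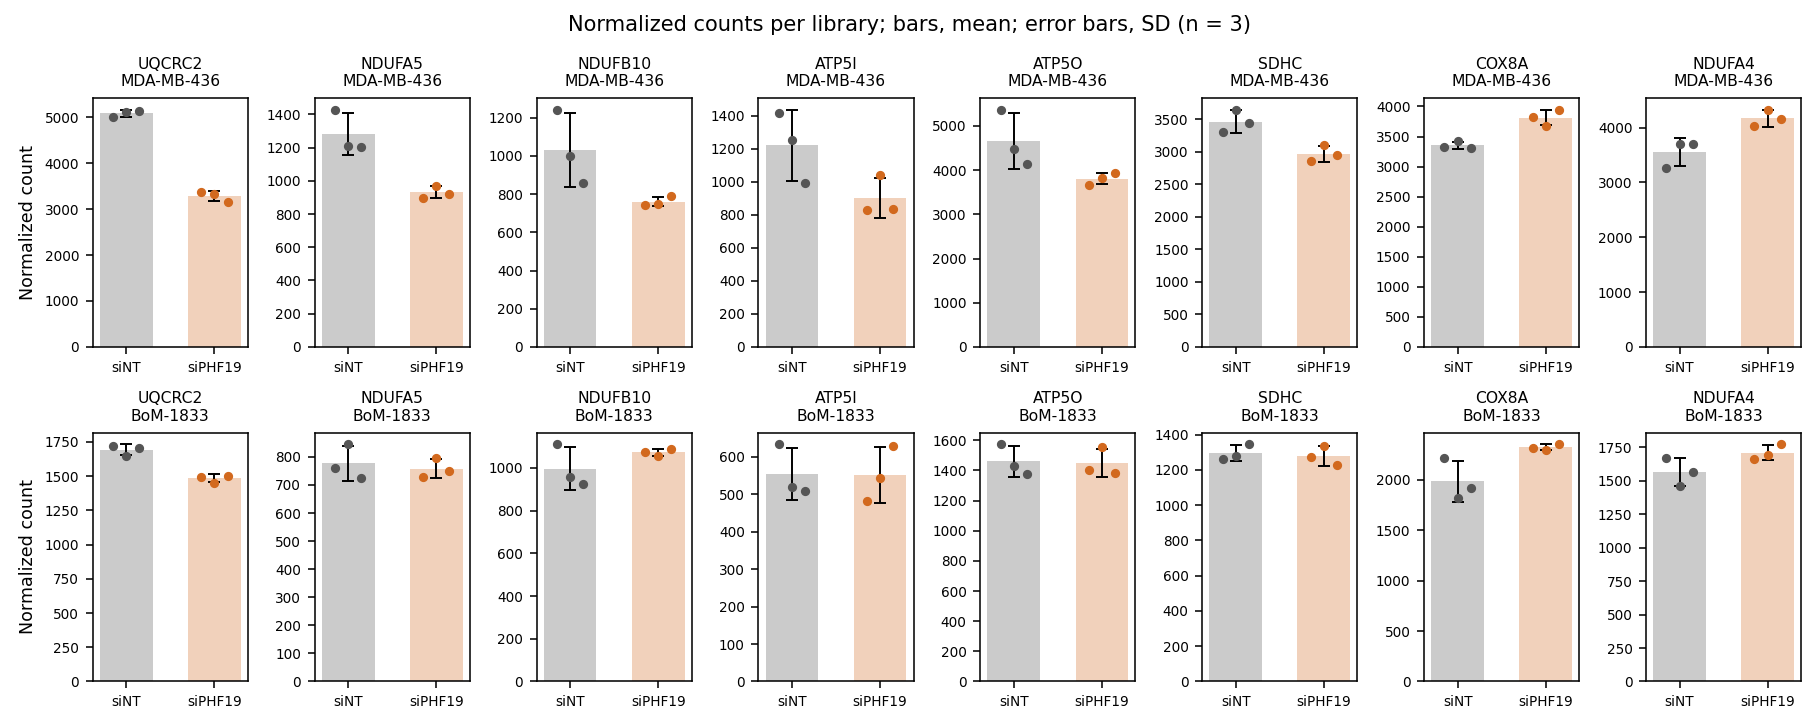
Normalized counts of 8 subunit genes in each library (points), with the mean (bar) and SD (error bar, n = 3), in MDA-MB-436 (upper row) and BoM-1833 (lower row). For UQCRC2 the siNT libraries of MDA-MB-436 lie between 4995 and 5144 and the siPHF19 libraries between 3158 and 3375. For ATP5I the groups overlap in both lines.

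Complex I oxidises NADH, with 7 nuclear core subunits that hold the flavin and iron-sulfur centres and 30 accessory subunits among the genes counted here. No core gene was called in either line in the deposited DESeq2 test, with 0 and 1 of 7 at an unadjusted p under 0.05. Their median log2 fold change was -0.06 (MDA-MB-436) and, in the other line, 0.08. The core gene NDUFV1 was called lower without siNT 3 of MDA-MB-436, and NDUFV2 higher without siNT 1 of BoM-1833. All complex I calls in the deposited test were of accessory genes. They were 3 of 30 in MDA-MB-436 (NDUFA5 and NDUFB10 lower, NDUFB4 higher) and 1 of 30 in BoM-1833 (NDUFA7 higher). These are 10% and 3.33%, below the 22.1% and 10.9% of all tested genes. With 30 of 37 genes accessory and so few calls, the counts do not set core and accessory genes apart. Over the complex, 25 of 37 genes lay below 0 in MDA-MB-436 and 34 of 37 above 0 in BoM-1833.

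NDUFA5, an accessory subunit of the matrix arm, lies at chr7:123536997-123558255 on the minus strand (GRCh38, GENCODE v29). It had 1428, 1209 and 1206 normalized counts in the siNT libraries of MDA-MB-436 and 899, 971 and 923 in the siPHF19 libraries. The highest siPHF19 library was below the lowest siNT library. The mean fell from 1281 ± 127 to 931 ± 36.3 (SD, n = 3 each), to 72.7%, and the authors' deposited table gives -0.46 (SE 0.10, DESeq2 adjusted p 2.57e-05). In BoM-1833 it was at 760, 845 and 726 in siNT and 728, 795 and 751 in siPHF19, and the groups overlapped fully. There the authors' deposited table gives -0.04 (DESeq2 adjusted p 0.896). The annotation holds 12 pseudogenes named after NDUFA5, and how reads that match several copies were shared is not given in the sources used here.

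The NDUFA5 promoter is shown because it holds an NRF1 motif. RefSeq lists 3 promoters for the gene, and the motif is in the one on the minus strand at chr7:123557769-123558068 (GRCh38.p14), at position -158 from the start, in capitals:
NDUFA5: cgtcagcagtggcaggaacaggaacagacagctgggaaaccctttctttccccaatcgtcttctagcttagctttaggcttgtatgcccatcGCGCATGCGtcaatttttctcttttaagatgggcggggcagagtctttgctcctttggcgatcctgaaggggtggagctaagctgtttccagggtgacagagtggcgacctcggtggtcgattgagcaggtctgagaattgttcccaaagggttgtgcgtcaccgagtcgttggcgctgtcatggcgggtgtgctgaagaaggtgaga

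NDUFB10, an accessory subunit of the membrane arm, lies at chr16:1959508-1961975 on the plus strand. It was at 1242, 999.8 and 859 in the siNT libraries of MDA-MB-436 and at 746, 748 and 788 in the siPHF19 libraries. The siNT libraries were spread widely, and the siPHF19 libraries lay together below the lowest of them. The mean fell from 1033 ± 194 to 760.5 ± 23.7 (SD, n = 3 each), to 73.6%. The authors' deposited table gives -0.44 (SE 0.13, DESeq2 adjusted p 0.00376), and over the 17 alternative fits the value ran from -0.56 to -0.29 and stayed called. In BoM-1833 the siNT libraries had 1111, 955 and 924 and the siPHF19 libraries 1077, 1056 and 1088, which lie between the highest and the other siNT libraries. There the authors' deposited table gives 0.11 (DESeq2 adjusted p 0.565).

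The promoter of NDUFB10 is shown because its change differs between the lines, as is tested below. It lies on the plus strand at chr16:1959288-1959587 (RefSeq, GRCh38.p14) and holds none of the 4 motifs:
NDUFB10: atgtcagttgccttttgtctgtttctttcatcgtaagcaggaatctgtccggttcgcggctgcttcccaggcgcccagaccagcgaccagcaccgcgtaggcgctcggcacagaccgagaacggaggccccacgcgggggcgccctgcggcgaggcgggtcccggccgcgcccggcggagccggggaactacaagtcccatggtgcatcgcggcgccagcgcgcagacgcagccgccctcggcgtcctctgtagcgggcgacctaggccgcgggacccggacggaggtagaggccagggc

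The complex I genes that rose did so by less. NDUFB4, a membrane arm subunit, rose in MDA-MB-436 from 1857, 2000.4 and 1968 in siNT to 2249, 2311 and 2261 in siPHF19. The authors' deposited table gives 0.23 (SE 0.07, DESeq2 adjusted p 0.0072). This call was lost without siNT 2 (adjusted p 0.0693), siPHF19 1 (0.0906), siPHF19 2 (0.144) or siPHF19 3 (0.0923), and 12 pseudogenes are named after the gene. NDUFA7, an accessory subunit of the matrix arm, rose in BoM-1833 from 323, 301 and 274 in siNT to 387, 374 and 383 in siPHF19. The groups did not overlap, and the authors' deposited table gives 0.35 (SE 0.12, DESeq2 adjusted p 0.0393). That call was lost in each fit without 1 library other than siNT 1, with adjusted p of 0.158 (siNT 2), 0.231 (siNT 3), 0.192 (siPHF19 1), 0.16 (siPHF19 2) and 0.188 (siPHF19 3). In MDA-MB-436, NDUFA7 was at 0.21 with separated groups but was not called (DESeq2 adjusted p 0.141 in the authors' deposited table). NDUFA7 overlaps the gene RPS28 in the annotation, and whether the counting used strand is not given in the sources used here.

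NDUFS5 had the highest level per transcript length in complex I. It was at 9467, 7348 and 6402 in siNT and 7049, 7430.5 and 7595 in siPHF19 of MDA-MB-436. Its siNT libraries alone spanned the siPHF19 libraries, and the authors' deposited table gives -0.07 (DESeq2 adjusted p 0.723). In BoM-1833 the same gene gave 0.19 (DESeq2 adjusted p 0.163 in the authors' deposited table) and was called higher without siNT 1 (0.29, adjusted p 0.00022). NDUFV3, the complex I gene with the lowest level per transcript length, was not called in either line. The authors' deposited table gives -0.17 (MDA-MB-436) and -0.06 (BoM-1833).

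Complex II, succinate dehydrogenase, links the respiratory chain to the tricarboxylic acid cycle and has no mitochondrially encoded subunit. All 4 genes lay below 0 in MDA-MB-436 (median -0.18), though SDHA ran from -0.12 to 0.02 over the alternative fits. SDHC, a membrane anchor, was called, which is 25% of the complex, beside 22.1% of all tested genes. SDHC was at 3306, 3649 and 3444 in siNT and fell to 2863, 3104 and 2953 in siPHF19, so the groups did not overlap. The authors' deposited table gives -0.22 (SE 0.07, DESeq2 adjusted p 0.0127). The call was lost without siNT 2 (adjusted p 0.216), siPHF19 1 (0.185), siPHF19 2 (0.0576) or siPHF19 3 (0.121). The gene lies at chr1:161314257-161375340 on the plus strand, and 4 pseudogenes are named after it.

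SDHD, the other membrane anchor, was at 1611, 1530 and 1518 in siNT and 1346, 1371 and 1408 in siPHF19 of MDA-MB-436. These groups were separated too, and the authors' deposited table gives -0.18 (DESeq2 adjusted p 0.0698), outside the threshold. SDHB, the iron-sulfur subunit, gave -0.18 (DESeq2 adjusted p 0.189 in the authors' deposited table) with overlapping groups and was called lower without siNT 3 (-0.27, adjusted p 0.00296). SDHA, the catalytic flavoprotein, gave -0.04 there. In BoM-1833 the values of SDHA, SDHB, SDHC and SDHD in the authors' deposited table were 0.10, -0.02, -0.02 and 0.05. None of the 4 was called in that line by DESeq2, with 0 at an unadjusted p under 0.05, beside 10.9% of all tested genes called. SDHA was called higher there without siNT 1 (0.16, DESeq2 adjusted p 0.0468).

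Complex IV reduces oxygen, and its catalytic subunits are mitochondrially encoded. The nuclear subunits surround them, and several have isoforms that are used in muscle, lung or testis. Of 13 tested complex IV genes, 2 were called in MDA-MB-436, COX8A and NDUFA4, and 1 in BoM-1833, COX8A. These are 15.4% and 7.69%, beside 22.1% and 10.9% of all tested genes. The median log2 fold change was -0.04 in MDA-MB-436, against 0.10 in BoM-1833.

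COX8A, a small membrane subunit, lies at chr11:63974607-63976543 on the plus strand. In MDA-MB-436 it rose from 3321, 3420 and 3312 in siNT to 3831, 3681 and 3937 in siPHF19. In BoM-1833 it rose from 2213, 1821 and 1920.4 to 2316, 2289 and 2348. In both lines every siPHF19 library lay above every siNT library, although siNT 1 of BoM-1833 came close. The authors' deposited table gives 0.19 (SE 0.06, DESeq2 adjusted p 0.0189) for the first line, and for the second 0.22 (SE 0.08, DESeq2 adjusted p 0.0419).

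The COX8A calls were not stable. In MDA-MB-436 the call was lost without siNT 2 (adjusted p 0.135), siPHF19 1 (0.186), siPHF19 2 (0.105) or siPHF19 3 (0.232). In BoM-1833 it was lost without siNT 2 (0.326), siNT 3 (0.178), siPHF19 1 (0.169), siPHF19 2 (0.173) or siPHF19 3 (0.229), and also with edgeR under TMM and with limma. The direction stayed the same in all 17 alternative fits of each line, with log2 fold changes of 0.16 to 0.21 for the first line, and for the second 0.16 to 0.31.

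The COX8A promoter is shown because this gene alone was called in both lines. It lies on the plus strand at chr11:63974370-63974669 (RefSeq, GRCh38.p14), and the capitals mark an ETS motif on the opposite strand at position -18:
COX8A: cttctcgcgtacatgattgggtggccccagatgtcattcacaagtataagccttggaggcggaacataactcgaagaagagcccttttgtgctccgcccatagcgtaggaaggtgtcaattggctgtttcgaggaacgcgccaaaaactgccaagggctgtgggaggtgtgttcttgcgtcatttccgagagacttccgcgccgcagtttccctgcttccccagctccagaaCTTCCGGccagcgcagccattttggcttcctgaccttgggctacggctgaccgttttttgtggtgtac

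NDUFA4, named after complex I but assigned to complex IV, rose in MDA-MB-436 from 3254, 3695 and 3693 in siNT to 4018, 4324 and 4152 in siPHF19, without overlap. The authors' deposited table gives 0.23 (SE 0.08, DESeq2 adjusted p 0.0143). The call was lost without siNT 2 (adjusted p 0.0559), siPHF19 1 (0.0605), siPHF19 2 (0.181) or siPHF19 3 (0.101). In BoM-1833 it was at 1672, 1458 and 1566 in siNT and 1664, 1695 and 1771 in siPHF19, and the authors' deposited table gives 0.13 (DESeq2 adjusted p 0.347).

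COX4I1, which is the regulatory subunit 4 of most tissues, was at 8806, 6745 and 5822 in siNT and 5975, 6167 and 6437 in siPHF19 of MDA-MB-436. The siNT libraries enclosed all siPHF19 libraries, and the authors' deposited table gives -0.20 (DESeq2 adjusted p 0.252). Without siNT 3 it was called lower (-0.33, adjusted p 0.00224). COX6C, a small membrane subunit, was at 1797, 1437 and 1486 in siNT and 1835, 1875 and 1759.9 in siPHF19 of BoM-1833. It was not called (0.21, DESeq2 adjusted p 0.106 in the authors' deposited table), and was called higher without siNT 1 (0.32, adjusted p 5.46e-05).

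The tissue-restricted isoforms of complex IV were nearly absent. COX6A2 and COX7A1, the heart and skeletal muscle forms, had no read in any of the 12 libraries, and COX4I2, the lung form, had a value above 0 in 1 library only (0.954). COX8C reached at most 6.11 and NDUFA4L2 at most 6.55 normalized counts. NDUFA4L2 was at 6.55, 4.65 and 6.11 in siNT and 1.09, 1.66 and 0 in siPHF19 of MDA-MB-436, too few reads for an adjusted p. COX6B2, a testis form, lay between 22.9 and 38.9 in MDA-MB-436 but between 1.2 and 3.97 in BoM-1833.

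COX7B2 differed from the other isoforms. It was at 0 to 4.37 normalized counts in MDA-MB-436, but at 595, 489 and 491 in siNT and 600, 589.7 and 549 in siPHF19 of BoM-1833. The groups of BoM-1833 overlapped, and the authors' deposited table gives 0.14 there (DESeq2 adjusted p 0.516). As RPKM (reads per kilobase of transcript, scaled to the library's total), its siNT level in BoM-1833 was 53.4 ± 5.8 beside 152 ± 13 for COX7B (SD, n = 3 each). In MDA-MB-436 COX7B stood at 310 ± 43 and COX7B2 at 0.177 ± 0.2 (SD, n = 3 each) on that scale. The lines were normalized separately, and this difference between them was not tested.

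Complex V couples a proton-driven rotor in the membrane to the catalytic F1 head. It had 4 calls among 15 tested genes in MDA-MB-436, all lower, and 1 in BoM-1833, higher. These are 26.7% and 6.67% of its tested genes, beside 22.1% and 10.9% of all tested genes. The genes called in MDA-MB-436 were ATP5D in the head, ATP5G1 in the c-ring, ATP5O in the peripheral stalk and ATP5I in the membrane part. ATP5B, the catalytic beta subunit, lay at 15806 to 17253 in siNT and 15970.0 to 16415 in siPHF19 of MDA-MB-436. It was called in neither line (-0.03 and, in the second line, 0.08 in the authors' deposited table), and was called higher in BoM-1833 without siNT 1 (0.12, adjusted p 0.0228).

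ATP5I, the subunit e that takes part in dimerisation, was at 1419, 1255 and 993 in siNT and 831, 1041 and 836 in siPHF19 of MDA-MB-436. It fell in the test (-0.44, SE 0.14, DESeq2 adjusted p 0.00901 in the authors' deposited table), although siPHF19 2 lay above siNT 3. The call was lost without siNT 2 (adjusted p 0.0556), siPHF19 1 (0.0806) or siPHF19 3 (0.0746). ATP5O, the subunit that joins the peripheral stalk to the head, fell from 5366, 4467 and 4132 to 3667, 3825 and 3925, without overlap. The authors' deposited table gives -0.29 (SE 0.10, DESeq2 adjusted p 0.0161). That call was lost without siPHF19 1 (adjusted p 0.123), siPHF19 2 (0.08) or siPHF19 3 (0.0503). In BoM-1833 both genes were at -0.01 in the authors' deposited table, with overlapping groups.

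ATP5G1, ATP5G2 and ATP5G3 encode the same mature c subunit, which forms the rotor ring, with different import sequences. In MDA-MB-436, ATP5G1 fell from 942, 908 and 867 to 763, 781 and 774 (-0.23, SE 0.09, DESeq2 adjusted p 0.0352 in the authors' deposited table). ATP5G2 and ATP5G3 gave 0.03 and -0.03 there and were not called. In BoM-1833 it was ATP5G2 that was called, rising from 1869, 1648 and 1675 to 1959.7, 2024 and 2019 (0.21, SE 0.07, DESeq2 adjusted p 0.0412 in the authors' deposited table). ATP5G1 and ATP5G3 were at 0.06 and 0.05 and were not called. So a different member of the set passed the threshold in each line, and the difference between the lines was past the threshold for none of the 3.

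The c-ring calls were lost in most fits with 1 library fewer, while the log2 fold changes in those fits stayed between -0.24 and -0.20 for ATP5G1 and between 0.17 and 0.22 for ATP5G2. The ATP5G1 call was lost in every fit without 1 library except siNT 3, with adjusted p of 0.111 (siNT 1), 0.221 (siNT 2), 0.231 (siPHF19 1), 0.196 (siPHF19 2) and 0.182 (siPHF19 3). The ATP5G2 call was lost without siNT 2 (0.276), siNT 3 (0.184), siPHF19 1 (0.127), siPHF19 2 (0.243) or siPHF19 3 (0.228). With all 6 libraries it was also lost with edgeR under TMM (0.0558), size factors (0.0503) or upper quartile scaling (0.0567) and with DESeq2 without independent filtering (0.0601). ATP5G1 has 7 and ATP5G2 3 pseudogenes named after it in the annotation.

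ATP5D, the delta subunit of the head, was at 1773, 1616 and 1318 in siNT and 1153, 1305 and 1337 in siPHF19 of MDA-MB-436, so siPHF19 3 lay above siNT 3. It fell in the test (-0.31, SE 0.11, DESeq2 adjusted p 0.032 in the authors' deposited table). This call was lost with edgeR under TMM and with limma, and without any 1 library other than siNT 3, with adjusted p of 0.102 (siNT 1), 0.155 (siNT 2), 0.221 (siPHF19 1), 0.088 (siPHF19 2) and 0.0566 (siPHF19 3). ATP5E, the epsilon subunit, was not called in either line but was called higher without siNT 1 in both, at 0.24 (adjusted p 0.00938) in the first line and at 0.35 (adjusted p 3.06e-08) in the second. NDUFB4 and ATP5D, like CYC1, COX7B, COX7B2 and NDUFA12, are outside the rule for named genes and were named after their values were seen.

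The exact 2-sided permutation test over the 3 and 3 libraries of a line cannot go below p = 0.1. It gave 0.1 for 12 of the 14 calls and 0.2 for ATP5D and ATP5I in MDA-MB-436, whose groups overlap.

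The changes of the 78 subunit genes tested in both lines were compared by a z test on the difference of the deposited log2 fold changes, adjusted over all 12290 genes tested in both. At an adjusted p under 0.05, 3 of 78 differed, UQCRC2, NDUFB10 and NDUFA5, against a background of 4.89% of all genes. Each was lower in MDA-MB-436. The change in MDA-MB-436 minus that in BoM-1833 was -0.44 for UQCRC2 (SE 0.09, adjusted p 0.000192), -0.55 for NDUFB10 (SE 0.15, adjusted p 0.0126) and -0.42 for NDUFA5 (SE 0.13, adjusted p 0.0357). These 3 differences also passed in an interaction fit over 12 libraries with edgeR and with DESeq2. The UQCRC2 difference held in all 15 alternatives run on it (-0.46 to -0.41).

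The other 2 differences were lost in some of the fits without 1 library. That of NDUFB10 was lost without siNT 1 (adjusted p 0.0589), siPHF19 1 (0.0682) or siPHF19 2 (0.0671) of MDA-MB-436 and without siNT 3 of BoM-1833 (0.051). That of NDUFA5 was lost without siNT 1 (0.121), siNT 2 (0.0746), siPHF19 1 (0.179), siPHF19 2 (0.0866) or siPHF19 3 (0.132) of MDA-MB-436. It was also lost without siNT 3 (0.143), siPHF19 1 (0.0568), siPHF19 2 (0.168) or siPHF19 3 (0.0955) of BoM-1833. The count of subunit genes that differ rose to 16 without siNT 3 of MDA-MB-436 and to 9 without siNT 1 of BoM-1833.

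In 71 of 78 subunit genes the log2 fold change was lower in MDA-MB-436 than in BoM-1833. Without 1 library the count of 71 subunit genes became between 61 (without siNT 1 of MDA-MB-436) and 75. This direction was not counted over all genes tested in both lines. Whether it is particular to the subunit genes was therefore not tested. Other genes with a transcript under 1000 bases also had a lower median log2 fold change for MDA-MB-436 (-0.08) than for BoM-1833 (0.03). Over all tested genes the median was 0.00 for each line.

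**Figure D4:**
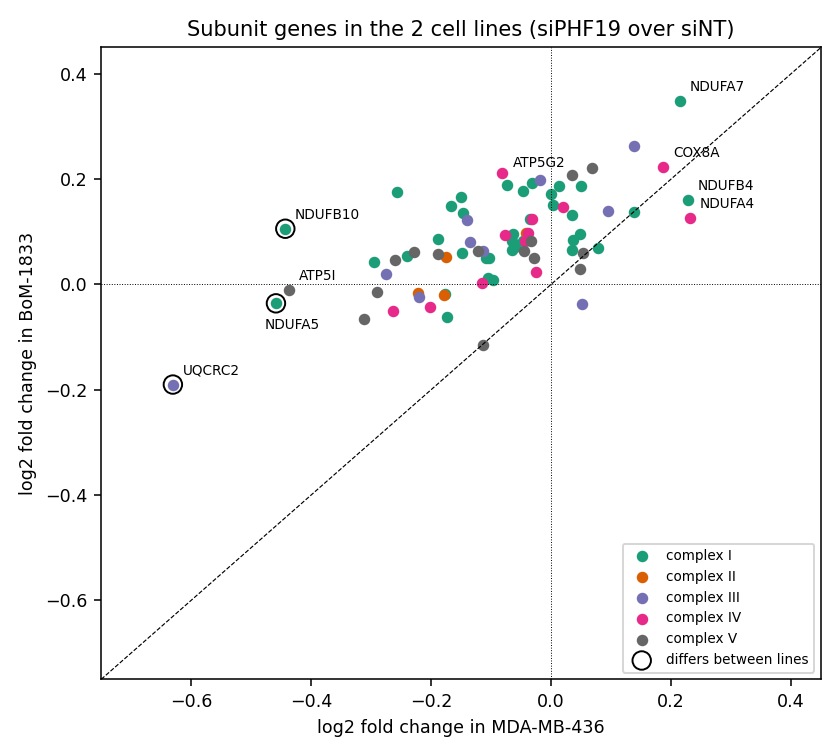
Log2 fold changes (siPHF19 over siNT) of the 78 subunit genes tested in both lines, MDA-MB-436 on the horizontal and BoM-1833 on the vertical axis, coloured by complex. Rings mark the 3 genes whose change differs between the lines, and 71 of 78 points lie above the dashed line of equal change.

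Levels between genes were compared per transcript length, as RPKM, in the siNT libraries. The length was the median over a gene's coding transcripts in GENCODE v29, and the order of genes depends on it. SDHC was given 460 bases. Its mean normalized count was 3466 beside 7888 for SDHA in MDA-MB-436. In BoM-1833 it was 1295, below SDHA (2961), SDHB (1518) and SDHD (1986). By RPKM, the highest subunit genes of the complexes in MDA-MB-436 were NDUFS5 (754 ± 140), SDHC (402 ± 25), UQCRH (661 ± 120), COX4I1 (477 ± 94) and ATP5J2 (517 ± 66, all SD, n = 3). In BoM-1833 they were NDUFS5 (182 ± 21), SDHC (168 ± 5.6), UQCRB (190 ± 13), COX6A1 (390 ± 45) and ATP5B (375 ± 12; all SD, n = 3). Some neighbours in the order were not separated: in BoM-1833 NDUFA12 stood at 181 ± 21 beside NDUFS5, and in MDA-MB-436 ATP5B at 478 ± 14 beside ATP5J2 (SD, n = 3 each). UQCRC2 had rank 4 of 10 in complex III of MDA-MB-436 (191 ± 6.1) and rank 6 in BoM-1833 (71.4 ± 0.87; SD, n = 3 each).

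At the low end, NDUFV3 was the lowest complex I gene in both lines (5.58 ± 0.093 and 8.57 ± 0.53; SD, n = 3 each). UQCRHL, a near copy of UQCRH without introns, was lowest in complex III at 1.9 ± 0.32 and 0.592 ± 0.085 (SD, n = 3 each), and reads of this pair may be divided either way. ATP5L2 had no read in the siNT libraries.

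**Figure D5:**
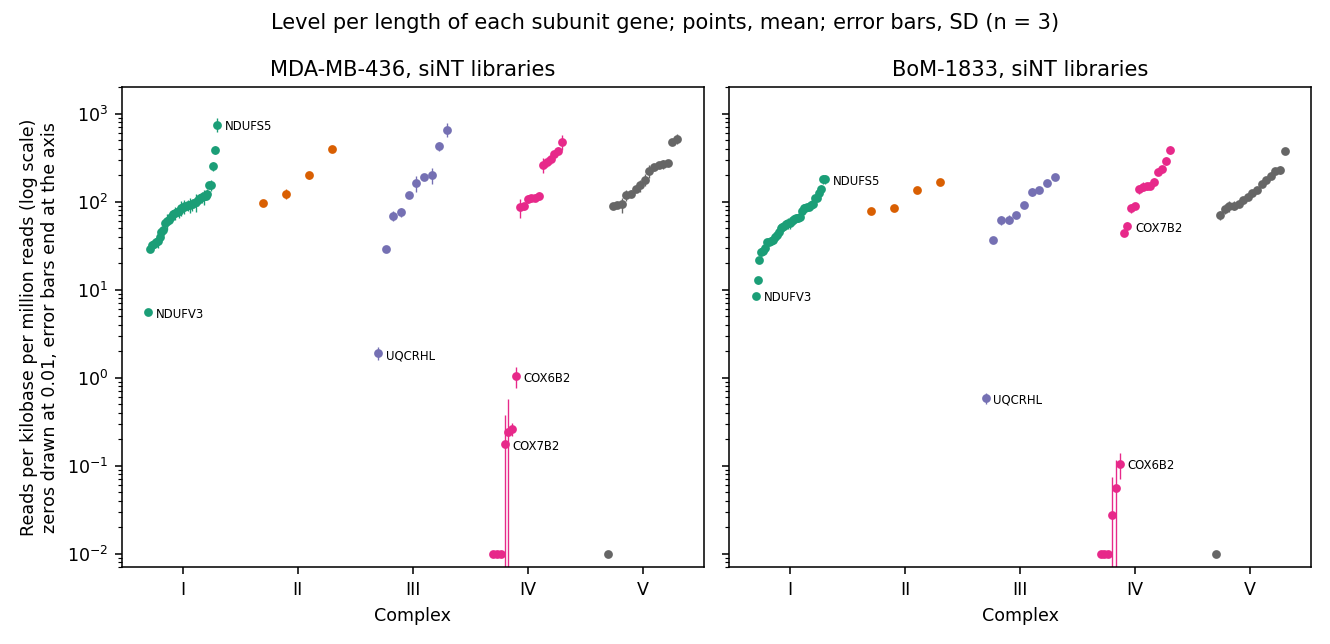
Level per length (RPKM, log scale) of each subunit gene in the siNT libraries, by complex, mean and SD (n = 3), in MDA-MB-436 (left) and BoM-1833 (right). COX7B2 lies at 0.177 in MDA-MB-436 but at 53.4 in BoM-1833, while NDUFS5 leads complex I in both (754 and 182).

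In the 3′ UTRs, the 6-base sequence AAACTG was searched, which earlier work on these data had found more often in genes lower after siPHF19. As it was picked from these data, an excess among genes called lower here is no independent result. In MDA-MB-436 it was in 51.2% of the 3′ UTRs of 1512 genes called lower and in 41.8% of 9337 genes not called, but also in 45.2% of 1377 genes called higher. In BoM-1833 the shares were 62.6% (lower), 42.9% (not called) and 36.8% (higher). The median 3′ UTR lengths there were 1575, 1109 and 1277 bases in that order. In MDA-MB-436 they were 1000, 1081 and 1727 bases. The shares were not adjusted for length. Of the 8 subunit genes called lower in MDA-MB-436, 2 held it, NDUFA5 and SDHC, and UQCRC2 and NDUFB10 did not. Among the uncalled subunit genes 16 of 68 (23.5%) held it, and of the 3 called higher, NDUFB4 did. The 3′ UTRs of the subunit genes are short, with a median of 217 bases in the uncalled ones against 1081 bases for all uncalled genes, while that of SDHC reaches 12907 bases in the annotation. The site of NDUFA5 begins 30 bases into a 3′ UTR of 1090 bases, at chr7:123542072-123542101 on the minus strand (GRCh38, GENCODE v29), with the 6 bases in capitals:
NDUFA5 site: tgtgttcatgggAAACTGatgtaattaaat

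Genes that serve the complexes were counted from lists chosen with earlier results of these data known. Of 45 assembly factors, 11 were called in MDA-MB-436 (2 higher, 9 lower, median log2 fold change -0.08), which is 24.4% beside 22.1% of all tested genes. In BoM-1833 2 were called (1 higher, 1 lower, median -0.01), which is 4.44% beside 10.9%. The same 2 genes led in both lines. TTC19, a complex III factor, fell from 859, 856 and 797 to 452, 490.3 and 479.5 in MDA-MB-436 (-0.82, DESeq2 adjusted p 4.5e-16) and from 1172, 1103 and 999.8 to 833, 877.5 and 846 in BoM-1833 (-0.36, adjusted p 0.000895). COX20, a complex IV factor, rose from 934, 859 and 819 to 1309, 1430 and 1186 (0.59, DESeq2 adjusted p 7.46e-08) and from 841, 780.2 and 802 to 1058, 1062 and 1049 (0.39, adjusted p 6.87e-05). The groups of both genes were apart in both lines. Without 1 library the count of assembly factors called in MDA-MB-436 was 5 to 12, lowest without siNT 2.

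Mitochondrial ribosomal protein genes, which make the mitochondrially encoded subunits, were called in 20 of 76 in MDA-MB-436 (1 higher, 19 lower, median -0.15) and 1 of 76 in BoM-1833, MRPL9. These are 26.3% and 1.32%, beside 22.1% and 10.9% of all tested genes. Among genes with a mean of at least 300 normalized counts, 28.2% and 14.3% were called. MRPL9 gave -0.75 (DESeq2 adjusted p 2.24e-17) and -0.45 (adjusted p 0.000895), and MRPS17 -0.73 (adjusted p 5.34e-06) in MDA-MB-436. The 20 became 33 without siNT 3 and 5 without siPHF19 2, and the list deviates with siNT 1 as given above. Of 82 cytosolic ribosomal protein genes, 6 were called in MDA-MB-436 (7.32%), against 3 in BoM-1833 (3.66%), both below the background. These counts became 35 without siNT 3 and 10 without siNT 1.

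Among 14 genes of electron carriers and substrate transport, 4 were called in MDA-MB-436 (28.6%, beside 22.1% of all tested genes). In BoM-1833 0 were called, beside 10.9% of all tested genes. There 1 had an unadjusted p under 0.05, and 4 were called without siNT 1. The 4 in MDA-MB-436 became 1 without siPHF19 1. SLC25A6, an ADP/ATP carrier, rose in MDA-MB-436 (0.36, DESeq2 adjusted p 1.25e-06), as did COQ6 of coenzyme Q synthesis (0.39, adjusted p 0.00701). Of 14 tested genes on a list of transcription factors and coactivators, which includes factors for mitochondrial DNA, 1 was called in each line (7.14%, below the background), both lower. Without 1 library these counts ran from 0 to 2 and from 0 to 3. The called genes were POLRMT, the mitochondrial RNA polymerase, in MDA-MB-436 (-0.28, DESeq2 adjusted p 0.0085) and MYC in BoM-1833 (-0.29, adjusted p 0.00218). PPARGC1A, a coactivator, stood at 20.7, 21.7 and 20.8 in siNT and 37.1, 37.3 and 41.2 in siPHF19 of MDA-MB-436 and was not called (0.87, adjusted p 0.0598).

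Of 17 tricarboxylic acid cycle genes, 4 were called in MDA-MB-436, against 2 in BoM-1833. These are 23.5% and 11.8%, near the 22.1% and 10.9% of all tested genes. DLST, a subunit of the oxoglutarate dehydrogenase complex, fell in both lines (-0.33 and -0.26, DESeq2 adjusted p 8.63e-06 and 0.00286). Of 20 glycolysis genes, 7 were called in MDA-MB-436 (2 higher, 5 lower) and 2 in BoM-1833. That is 35% and 10%, beside the same background. ENO1, an enolase, fell in MDA-MB-436 (-0.69, DESeq2 adjusted p 3.04e-26), and HK2, a hexokinase, rose in both lines (0.32 and 0.25, adjusted p 0.00222 and 0.000643). Without siNT 2 of MDA-MB-436 the cycle count was 2, and without siPHF19 3 of BoM-1833 it was 0. Without siNT 3 of MDA-MB-436 the glycolysis count was 10, and without siNT 1 of BoM-1833 it was 5.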

How the data were processed

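The deposited tables, 1 per cell line, hold normalized counts for 12 libraries made with a stranded mRNA kit, per the labels. Per the submitters' processing notes, STAR, RSEM 1.3.1, DESeq2 1.46.0 and hg38 were used, with no role stated. Which annotation was used, and whether counting was by strand, is not given in the sources used here. The deposited signal is each gene's read count divided by 1 size factor per library, and the authors' log2 fold changes and standard errors (siPHF19 over siNT), Wald statistics (a score) and p-values come from DESeq2, per the file headers.

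The main result is the authors' deposited DESeq2 Wald test, called at an adjusted p under 0.05. Genes without an adjusted p were not tested. The design has no covariates. Values were divided by the smallest step between them to recover whole reads, where 100.00% of values were whole within 0.01 in every library. On these reads edgeR with TMM scaling called 3422 genes in the MDA-MB-436 table and 1527 in the other. For siPHF19 replicate 1 of BoM-1833 the step lies near 1, and this column is treated as a plain normalized signal except in the refits and totals. The reads were refitted for the alternatives with DESeq2 1.42.0, edgeR 4.0.16 and limma 3.58.1 in R 4.3.3: other scalings, no filter on low counts, limma on log2 of the normalized count plus 1 or 8, other thresholds, a replicate block, and each library left out. The scalings by total reads only and by upper quartile were added after the data were seen. Changes in the lines were compared by a z test: the difference of the deposited log2 fold changes divided by its standard error (both squared errors summed, then the root), with Benjamini-Hochberg adjustment over the genes tested in both. The fits were also run on simulated counts with no shift of a library beyond its size factor. That run therefore does not address how the calls depend on single libraries. Other steps used Python 3.11.15 with NumPy 2.4.6, pandas 2.3.3 and SciPy 1.17.1.

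The members and lists were chosen with earlier results of these data known. Named genes are those called in both lines, the 2 with the smallest adjusted p per complex and line, those that differ between the lines, the highest and lowest level per complex, and the isoform sets. From each other list they are the 2 with the smallest adjusted p per line. Gene positions are from GENCODE v29 (GRCh38) and promoters from RefSeq (GRCh38.p14). Names that read as dates (28 genes) stayed in the totals. Some single genes of the lists are not reported here.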

Additional observations from a re-analysis of the deposited data

Results flagged for a closer look

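For 3 of 78 subunit genes the change after siPHF19 differed between the cell lines by a test of the difference itself. The background was 4.89% of all genes tested in both lines. The log2 fold change in MDA-MB-436 minus that in BoM-1833 was -0.44 for UQCRC2, where both lines lay below 0. It was -0.55 for NDUFB10, which fell in MDA-MB-436 and had a log2 fold change of 0.11 in BoM-1833 that was not called. It was -0.42 for NDUFA5, which fell in MDA-MB-436 and stood at -0.04 in BoM-1833. Of 15 alternatives, 10 lost the NDUFA5 difference, 5 that of NDUFB10 and 0 that of UQCRC2. With 3 libraries a group, no outlier test was run on single libraries.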

How the results depend on the processing

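No named gene and no difference between the lines changed its direction past the threshold. The median log2 fold change of the subunit genes in MDA-MB-436, which has no threshold, ran from -0.16 to 0.02. Of 67 pairs of a named gene and a line, 37 kept their side of the threshold in every alternative and 30 did not. Over 1132 alternatives, 1022 gave the same call, 86 lost it and 24 gained it. The 7 subunit genes of each line without an adjusted p had too few reads to be tested.

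The count of 11 subunit genes called in MDA-MB-436 was 5 at an adjusted p under 0.01, and 3 to 31 without 1 library. The count over all genes there, 3143, was 2080 at that threshold and 1767 to 3801 without 1 library. The count of 3 in BoM-1833 was 7 at an adjusted p under 0.1, 0 at 0.01, 0 with DESeq2 without independent filtering, 1 with edgeR under upper quartile scaling and 0 to 27 without 1 library. The count over all genes there, 1411, was 919 at 0.01 and 746 to 2046 without 1 library. The count of 3 differences between the lines was 1 to 16 without 1 library (9 without siNT 1 of BoM-1833). The causes were not tested.

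No pairing by replicate number was seen. Same-numbered libraries had correlations of their deviations of -0.23, 0.04 and -0.27 in MDA-MB-436 and -0.31, -0.12 and -0.20 in BoM-1833. Those with other numbers ran from -0.04 to 0.27 and from -0.19 to 0.33. Deviations from the mean of only 3 libraries are tied to each other, so these values cannot exclude a pairing. With the replicate block, DESeq2 called 4 subunit genes and 1610 genes in all in MDA-MB-436, and edgeR 4 subunit genes. In BoM-1833 the block gave 0 subunit genes with either tool, and 610 genes in all with DESeq2 and 876 with edgeR. In the interaction fit with the block within a line, 1 subunit gene differed.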
